A study of Mus musculus with 20 samples.

Results

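The cytochrome P450 genes of the mouse ileum were examined in 20 RNA sequencing libraries, one per mouse. Members were taken by name and by level: 129 genes in the table of estimated counts had a symbol of the form Cyp, number, letter, the 4 genes Cyp1a1, Cyp1b1, Cyp11a1 and Cyp11b1 were set aside, and 55 of the remaining 125 had at least 10 counts in at least 5 of the 20 libraries. These 55 were drawn from 35204 genes in all. The samples came from 7-week-old female C57Bl6 mice kept for 3 weeks on a control amino acid diet (CD) or on the same diet with no tryptophan (TDD). Within each diet, 5 mice remained specific pathogen free (SPF) and 5 received ampicillin, vancomycin, gentamycin, metronidazole and neomycin in sweetened drinking water (ABX), so that the 4 groups CD, TDD, CD+ABX and TDD+ABX held 5 mice each. All mice carried the wild-type genome, and each library was made from poly-A RNA of a short piece of whole ileum cut above the cecum. The methods describe sucrose in the ABX water and do not say that SPF mice received it, so sucrose and antibiotics cannot be told apart in the ABX comparisons.

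Cytochrome P450 enzymes hold a heme iron with which they insert 1 atom of oxygen into lipids, steroids, bile acids, vitamins, drugs and plant compounds. Most sit in the endoplasmic reticulum and take their electrons from P450 oxidoreductase, while a few are mitochondrial. In the small intestine the CYP3A and CYP2C enzymes of enterocytes meet drugs and dietary compounds first, and nuclear receptors that sense foreign compounds, bile acids, sterols and retinoids are known regulators of many of these genes. The comparisons asked how a lack of dietary tryptophan and a loss of the microbiota, alone and together, went with the levels of these genes.

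The members were chosen by their estimated counts over all 20 libraries, without regard to group, so their being detected is no finding. It had a sharp edge at low levels: the member with the lowest fifth-highest count was Cyp2c70 at 10, followed by Cyp27b1, Cyp2j5, Cyp2c40 and Cyp4x1 at 12 each, whereas Cyp2d10 and Cyp2d12 just outside it had 9, and Cyp2c52-ps, Cyp2c38 and Cyp2d9 had 7. Of the 70 genes left out, 26 had 0 counts in every library. Among the members, 36 had at least 10 counts in all 20 libraries, and no member reached 10 counts in the libraries of 1 group only. Annotation called 52 of them protein coding, and the other 3 were the pseudogenes Cyp2d37-ps, Cyp2d41-ps and Cyp4f41-ps. For testing, a gene needed at least 0.5 counts scaled to library size (CPM) in at least 1 library, which 48 of the 55 members met. The other 7, Cyp2c70, Cyp4f39, Cyp2d37-ps, Cyp2c40, Cyp4a31, Cyp2j5 and Cyp4x1, are given as levels.

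Several libraries stood apart before any P450 gene was considered. Total counts ranged from 36676963 to 58662617. The summed level of 9 enterocyte markers lay between 20406 and 32262 TPM, the transcript abundance scaled for length and library size, in 19 libraries and at 12510 TPM in CD mouse 2. Within this sum, large members differed with ABX in opposite directions. Fabp2 lay at 3585 to 5539 TPM in SPF mice and at 7450 to 14163 TPM in ABX mice. Apoa4 lay at 1037 TPM in CD mouse 2, at 4362 to 9155 TPM in the other SPF mice and at 1391 to 3921 TPM in ABX mice. CD mouse 5 held pancreatic RNA, with Pnlip at 30.9 TPM against at most 0.024 TPM elsewhere and a sum of 199 TPM over 6 exocrine pancreas markers against 10.97 to 18.05 TPM. In 4 libraries, TDD mice 4 and 5 and CD+ABX mice 1 and 2, traces of liver RNA were present, with Alb at 7.24 to 9.39 TPM against at most 0.189 TPM in the other 16, and a sum of 11.6 to 15.9 TPM over 8 liver markers against 1.05 to 2.69 TPM. Summed markers of other cells also differed between groups. The sum over 5 macrophage markers was 158 to 211 TPM in CD and 116 to 132 TPM in CD+ABX mice, without overlap, and 81.3 to 164 TPM in TDD and 87.7 to 134 TPM in TDD+ABX mice. The sum over 6 B cell markers reached 51.4 to 108 TPM in 4 of 5 TDD mice and 54.6 and 71.2 TPM in CD mice 2 and 3, and stayed at or under 7.07 TPM in all CD+ABX mice. It was 4.56 TPM in TDD mouse 1 and at most 6.37 TPM in the other CD mice. In TDD+ABX mice it ran from 4.11 to 86.8 TPM, highest in mouse 5. The sum over 5 goblet cell markers was 3387 to 4040 TPM in 4 of 5 TDD mice, 5118 TPM in TDD mouse 1 and 5037 to 5397 TPM in CD mice. It was 4042 to 5716 TPM in CD+ABX and 3921 to 5559 TPM in TDD+ABX mice. The part of these cells in the P450 differences was not tested. None of the markers in these lists was at 0 in all libraries. The genes that define the terminal ileum were scarce in SPF mice: Fabp6, the ileal bile acid binding protein, lay at 0.933 to 14.5 TPM in the 10 SPF mice and at 10.7 to 582 TPM in the 10 ABX mice, and Slc10a2, the ileal bile acid transporter, at 0.442 to 2.79 and 4.40 to 25.6 TPM. Lct and Gata4, typical of more proximal small intestine, lay at 315 to 669 TPM and 38.3 to 60.4 TPM over all libraries. Since whole tissue was sequenced, fewer cells of a type and less RNA per cell cannot be told apart. For members with q under 0.05 whose q passed 0.05 without the libraries with liver RNA, or without CD mice 2 and 5, that value is given beside the result.

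By level per transcript length, a small number of members made up most of the P450 RNA. Cyp4f14, which inactivates leukotriene B4 by omega-hydroxylation, had the highest mean at 936 TPM, 29.2% of the summed P450 level and rank 135 among 35105 genes. Next came the fatty acid omega-hydroxylase Cyp4v3 (359 TPM), the drug and steroid oxidising Cyp3a13 (354 TPM) and Cyp2d26 of the CYP2D family (312 TPM), and the first 4 together accounted for 61.2%. The neighbours Cyp4v3 and Cyp3a13 overlapped widely, at 243 to 469 and 121 to 531 TPM over the 20 mice. Cyp2j6 (162 TPM), a CYP2J enzyme of arachidonic acid and drug oxidation, Cyp4f16 (148 TPM), Cyp4b1 (148 TPM) and the mitochondrial sterol hydroxylase Cyp27a1 (121 TPM) completed the 8 members over 100 TPM. Cyp3a25 (89.2 TPM), Cyp2c65 (88.5 TPM), Cyp3a11 (78.4 TPM) and Cyp4f13 (69.7 TPM) followed. In all, 18 members averaged at least 10 TPM, 14 lay from 1 to 10 TPM and 23 under 1 TPM. The plot of TPM per mouse shows Cyp4f14 at the top in every group and members such as Cyp3a11, Cyp2b10 and Cyp4b1 spread over a several-fold range.

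**Figure D1:**
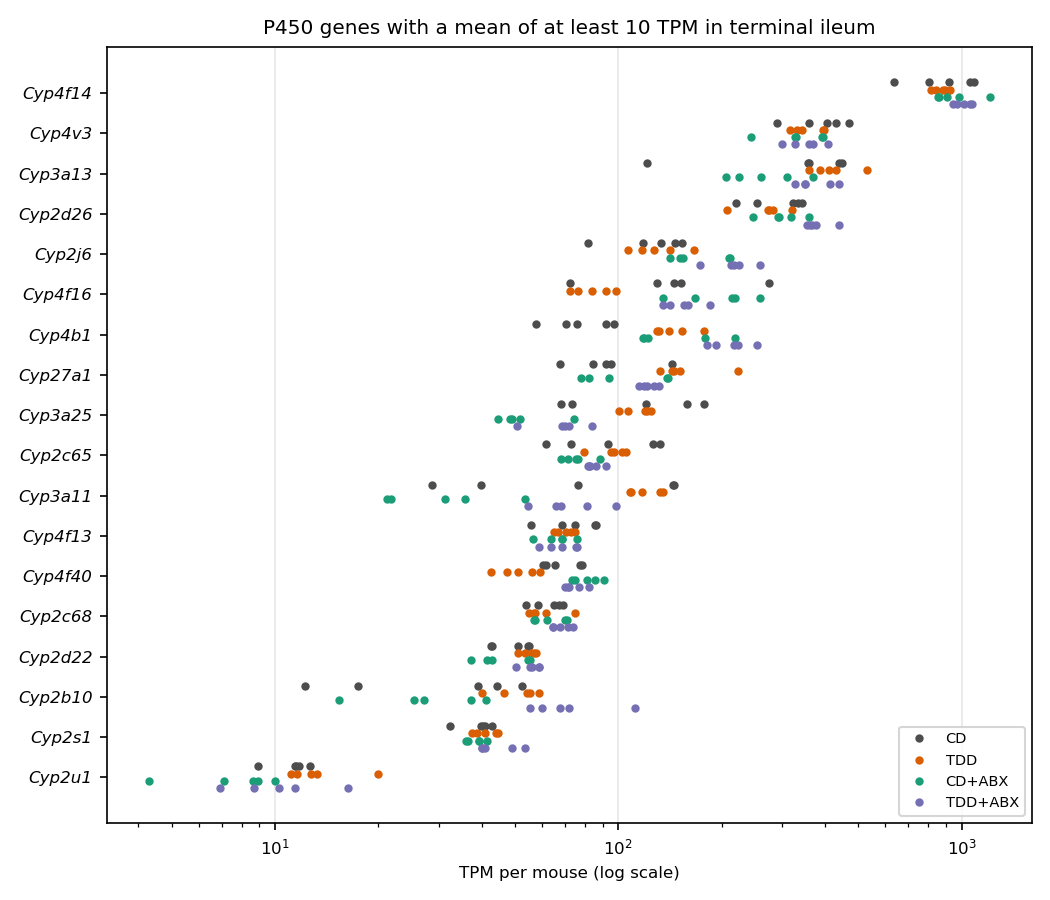
Level of the 18 P450 genes with a mean of at least 10 TPM, in TPM on a log axis; each point is 1 mouse and colours mark the 4 groups. Cyp4f14 lies highest, with a mean of 936 TPM, and Cyp3a11 runs from 21.1 to 145 TPM.

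The summed level of all 55 members was not tested, and its group means lay within the spread between CD mice. It was 3090 ± 688 TPM in CD, 3181 ± 166 TPM in TDD, 3047 ± 477 TPM in CD+ABX and 3504 ± 204 TPM in TDD+ABX mice (SD, n = 5). CD mouse 2 had the lowest sum, 2056 TPM, and also the lowest enterocyte marker sum, and the other 19 mice lay between 2658 and 3795 TPM. The part that enterocyte content plays in the differences between mice was not tested. The CYP4F genes, 9 members, gave the largest family sum (1206 ± 250, 1084 ± 54.6, 1313 ± 191 and 1317 ± 71.3 TPM in the same order of groups). The 5 CYP3A members gave 554 ± 216, 660 ± 83.8, 361 ± 80.6 and 519 ± 61.1 TPM, lowest in CD+ABX mice (SD, n = 5 in each).

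**Figure D2:**
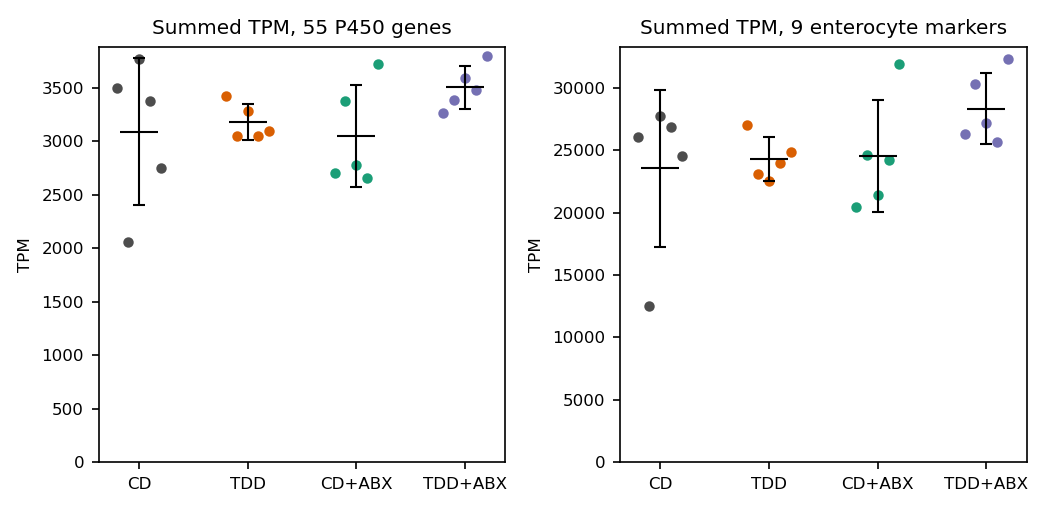
Summed TPM of the 55 P450 genes (left) and of 9 enterocyte markers (right) by group; points are mice, lines and bars the mean ± SD of 5 mice. CD mouse 2 is lowest in both panels, at 2056 and 12510 TPM.

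Few members passed the test in any comparison. Calls come from edgeR's quasi-likelihood test, run on 16306 genes with the 4 groups in 1 fit, and required a 2-fold difference or more together with q, the Benjamini-Hochberg corrected p-value, under 0.05. TDD feeding called 2 of the 48 members tested in SPF mice, both higher, where 1.83% of all genes were called, and 1 member in ABX-treated mice, lower, where 0.307% were called. ABX treatment called 5 members in CD-fed mice, 2 higher and 3 lower (2.25% of all genes), and 3 in TDD-fed mice, 1 higher and 2 lower (1.63%). The difference of the diet effects between ABX-treated and SPF mice passed for none of the 48 by edgeR, where 0.0245% of all genes were called. An unadjusted p under 0.05 was reached by 5 members there, and DESeq2 called 1, Cyp2a12. Of the 48 members, 4 met the filter for testing through libraries of 1 group only, Cyp2a12, Cyp2j8 and Cyp46a1 through TDD mice and Cyp2d41-ps through TDD+ABX mice. Both members called for the diet in SPF mice are among them, so their counts above are partly set by the filter.

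At q under 0.05 without the fold limit, the diet separated 7 members in SPF mice (14.4% of all genes) and 1 in ABX-treated mice (1.64%). ABX treatment separated 8 members in CD-fed mice (12.6%) and 9 in TDD-fed mice (15.4%). Over the 48 members, the log2 fold changes for the diet had a median of 0.11 without and 0.08 with ABX, against 0.01 and -0.003 over all genes tested. For ABX it was -0.07 on CD and -0.16 on TDD, against -0.005 and -0.03. The 4 comparisons share groups in pairs, so the 2 comparisons that use CD mice, for example, are not independent of each other.

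**Figure D3:**
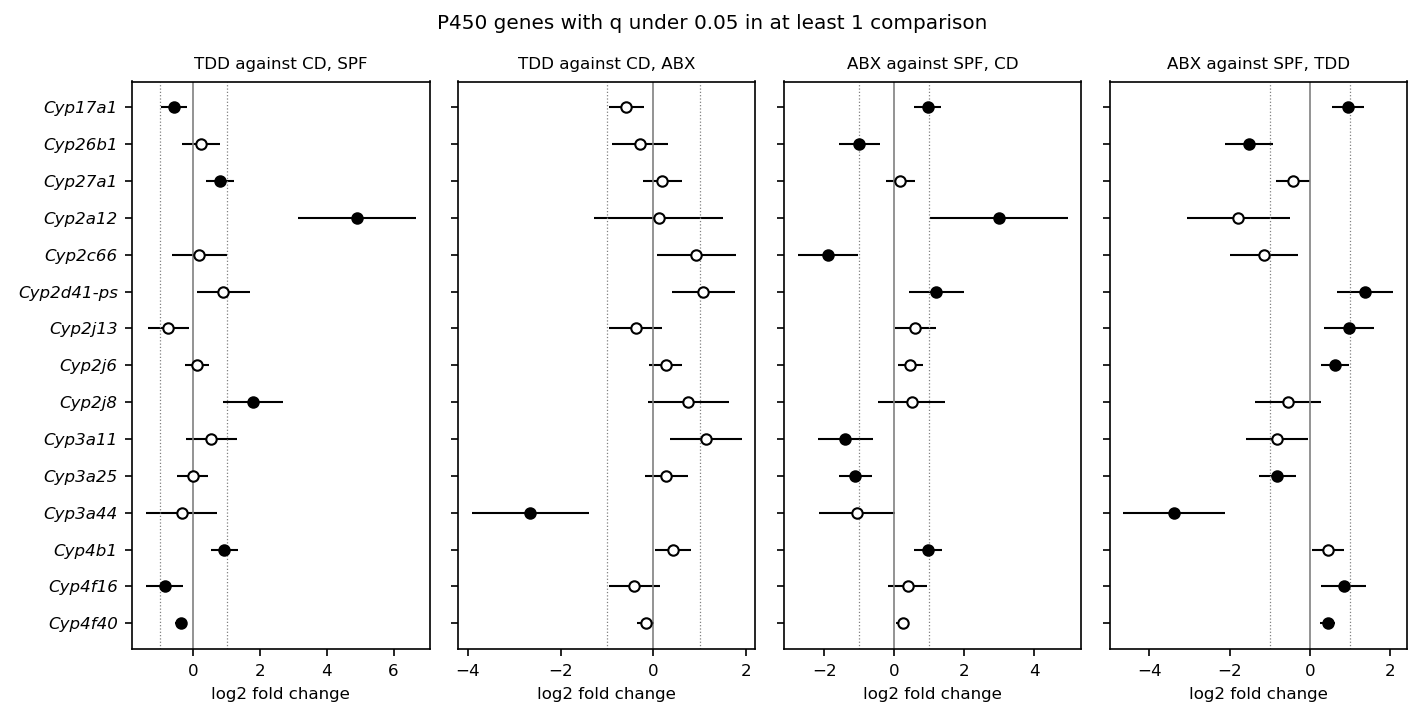
Log2 fold change with its 95% interval for the 15 members with q under 0.05 in at least 1 of 4 comparisons. Filled points have q under 0.05 in that panel and dotted lines mark 2-fold. Cyp3a44 lies at -2.65 and -3.38 in the panels that hold TDD+ABX mice, and Cyp2a12 at 4.90 for the diet in SPF mice.

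The CYP3A enzymes oxidise a large share of drugs as well as steroids and bile acids, and Cyp3a11 is a classical target of the pregnane X receptor, encoded by Nr1i2. Cyp3a11, Cyp3a25 and Cyp3a44 lie in 1 cluster on chromosome 5 of GRCm38 (145854426 to 145879964, 145977194 to 146009618 and 145773983 to 145805874, all on the minus strand), with Cyp3a13 at a distance (137892932 to 137921619). The member Cyp3a59 lies beside them (146079257 to 146113287, plus strand) and was called in no comparison. Stretches 200 to 101 bases before the RefSeq start are shown for Cyp3a11, Cyp3a25 and Cyp3a44, whose levels differed with ABX, to be read against each other. The letters AGGTCA, the core bound by many nuclear receptors, are in capitals on either strand (RefSeq, GRCm38.p6).
Cyp3a11, chr5:145879955-145880054, minus strand: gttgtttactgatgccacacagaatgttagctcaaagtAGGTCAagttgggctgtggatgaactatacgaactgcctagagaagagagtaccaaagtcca
Cyp3a25, chr5:146009718-146009817, minus strand: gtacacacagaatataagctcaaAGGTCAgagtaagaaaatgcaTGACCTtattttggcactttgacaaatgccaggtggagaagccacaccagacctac
Cyp3a44, chr5:145805975-145806074, minus strand: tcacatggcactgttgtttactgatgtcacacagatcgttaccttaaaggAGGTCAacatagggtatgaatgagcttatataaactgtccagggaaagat
The RefSeq start of Cyp3a11 lies 110 bases inside the gene bounds given above, so the end of its stretch falls within them. For Cyp3a25 and Cyp3a44 both annotations place the start within 1 base. Cyp3a11 and Cyp3a44 held the core once, 162 and 150 bases before the start, and Cyp3a25 held it 177 bases before it and again, reversed, 156 bases before it. Cyp3a59, not called, held the core 2 times in its window from 250 bases before to 50 after the start. Over 250 bases before the start, Cyp3a11 and Cyp3a44 were 72.5% identical after alignment, Cyp3a11 and Cyp3a25 54.7%, where the unrelated pair Cyp3a11 and Cyp2c66 gave 48.3%.

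Promoter windows of 300 bases, 250 before to 50 after the start, were found for 42 of the 55 members, some with more than 1 start. AGGTCA was present in 11 of their 50 windows (22.0%) and in 16.3% of 32851 windows over all genes, both strands counted. The core GCGTG of the xenobiotic response element was in 26.0% of member windows against 32.4%, and the E-box CACGTG, which contains no other of these motifs, in 2 windows, those of Cyp2j6 and Cyp4v3 (4.0% against 7.2%). The D-box TTANGTAA was in none of the 50 windows (2.3% of all). These are matches of letters and not sites of binding.

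Cyp3a11 was lower in ABX-treated mice on CD. It stood at 245, 47.5, 247, 136 and 70.3 CPM in CD mice 1 to 5 and at 37.4, 89.6, 35.7, 61.5 and 57.5 CPM in CD+ABX mice. CD mice 1 and 3 were high, and CD mice 2 and 5 fell inside the range of the CD+ABX mice. The mean fell from 149 ± 94.2 to 56.3 ± 21.9 CPM (SD over 5 mice; log2 fold change -1.41, standard error 0.37, q = 0.0181). The call was lost in 3 of 20 fits that left out 1 mouse (CD mouse 1, CD mouse 3 and CD+ABX mouse 3; q up to 0.0589), with the 2 groups fitted alone (q = 0.098), with a replicate block (q = 0.0652) and without the 4 libraries with liver RNA, where the log2 fold change was -1.52 (q = 0.0615). Without CD mice 2 and 5 it was -1.88 (q = 0.000524).

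On TDD, the 5 mice without ABX lay at 188 to 248 CPM of Cyp3a11 and the 5 with ABX at 94.8 to 162 CPM. The groups did not overlap, yet the difference did not pass (log2 fold change -0.82, standard error 0.36, q = 0.136). The CD+ABX and TDD+ABX groups did not overlap either, at 35.7 to 89.6 and 94.8 to 162 CPM (log2 fold change 1.13, q = 0.138), a difference that DESeq2 called. In edgeR without CD mice 2 and 5, these 2 differences gave q = 0.0272 and 0.0177.

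Cyp3a25, a close relative, followed a similar course. Its level was 214, 85.9, 229, 172 and 104 CPM in CD mice and 67.4, 100, 67.3, 61.3 and 76.5 CPM in CD+ABX mice, so that only CD mouse 2 lay among the treated mice. The mean fell from 161 ± 64.3 to 74.5 ± 15.3 CPM (SD over 5 mice; log2 fold change -1.11, standard error 0.22, q = 0.00327). The call held in 18 of 20 fits that left out 1 mouse and was lost without CD mouse 1 or CD mouse 3. Without CD mouse 3 the log2 fold change was -0.95, below the fold limit, with q = 0.0112. On TDD the values ran from 137 to 180 CPM without ABX and from 67.1 to 107 CPM with it, without overlap, at a log2 fold change of -0.81 (q = 0.0189), and without the libraries with liver RNA at the same -0.81 (q = 0.0726).

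Cyp3a44 was nearly absent from mice that had both TDD and ABX. The 5 TDD+ABX mice had 0.165, 0.18, 0.207, 0.179 and 0.239 CPM, or 8 to 10 counts each, while TDD mice had 3.39, 2.63, 0.828, 2.39 and 0.985 CPM and CD+ABX mice 2.03, 1.13, 1.43, 0.545 and 1.04 CPM. No value of either group reached down to those of the TDD+ABX mice. Against TDD mice the log2 fold change was -3.38 (standard error 0.60, q = 0.00192), and it was called in all 20 fits that left out 1 mouse. Against CD+ABX mice it was -2.65 (standard error 0.60, q = 0.0309), a call held in 13 of the 20 fits. It was lost with limma-voom (q = 0.126), with no filter on low counts (q = 0.0542), with a replicate block (q = 0.0511), with log2(TPM + 1) (q = 0.257) and without the libraries with liver RNA, where the log2 fold change was -2.36 (q = 0.12). ABX on CD gave -1.07 (q = 0.189), the diet in SPF mice -0.34 (q = 0.702), and the difference of the diet effects did not pass (-2.31, q = 0.33). In CD mice, 4 lay at 0.963 to 2.45 CPM and mouse 3 at 7.14 CPM.

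The remaining CYP3A genes were not called. Cyp3a13, the most abundant, had means of 766 ± 301, 980 ± 180, 610 ± 168 and 804 ± 92.4 CPM in CD, TDD, CD+ABX and TDD+ABX mice (SD, n = 5), with CD mouse 2 lowest at 257 CPM, and its ABX differences were -0.33 (q = 0.465) and -0.28 (q = 0.482) on the log2 scale. Cyp3a59 stayed under 1 CPM in every mouse. Reads of close relatives could have been divided among them: 48.4% of the 31-base words of Cyp3a44, the length by which kallisto assigns reads, occur in transcripts of another gene, with Cyp3a41a the most frequent partner. The shares were 45.9% for Cyp3a25, mostly Cyp3a59, 15.5% for Cyp3a11 and 0.31% for Cyp3a13. Cyp3a41a itself reached at most 2 counts in any library. Of the words of Cyp3a11, 7.81% occur in Cyp3a44. Cyp3a11 had 1695 to 14087 counts per library and Cyp3a44 8 to 358. How reads were divided between these 2 genes was not tested.

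**Figure D4:**
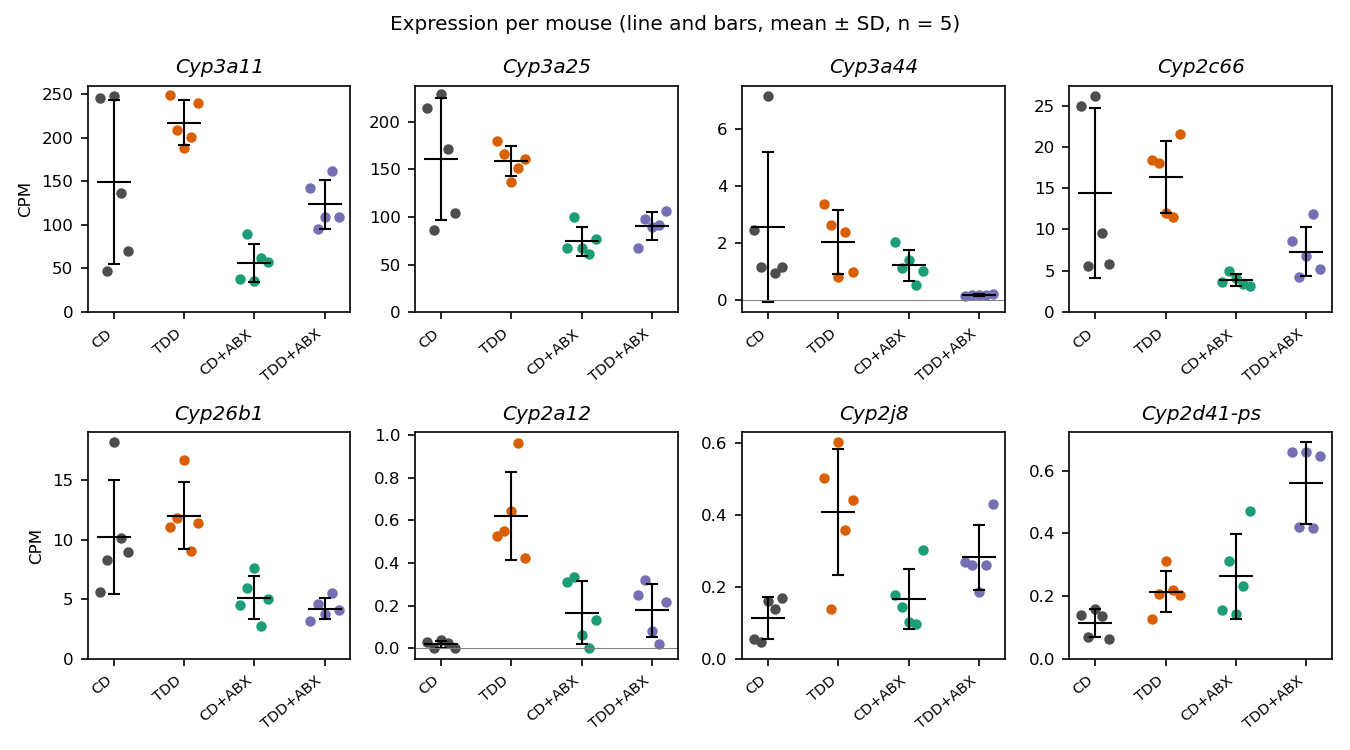
Level in CPM of the 8 P450 genes called in at least 1 comparison; points are mice, lines and bars the mean ± SD of 5 mice, with linear axes. Cyp3a44 lies at 0.165 to 0.239 CPM in all TDD+ABX mice, and Cyp2a12 at 0.425 to 0.963 CPM in TDD mice.

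The CYP2C enzymes oxidise drugs and turn arachidonic acid into epoxides. Cyp2c66 (chromosome 19, 39113898 to 39187072) and its neighbour Cyp2c65 (39061015 to 39093944) are shown together because they share sequence but differed in level. Only Cyp2c66 was called, and the responses of the pair were not tested against each other. The stretches are again counted from the RefSeq start, which for Cyp2c65 lies 9 bases before the bounds given here.
Cyp2c66, chr19:39113698-39113797, plus strand: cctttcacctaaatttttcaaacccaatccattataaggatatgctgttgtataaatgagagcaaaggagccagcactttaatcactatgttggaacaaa
Cyp2c65, chr19:39060806-39060905, plus strand: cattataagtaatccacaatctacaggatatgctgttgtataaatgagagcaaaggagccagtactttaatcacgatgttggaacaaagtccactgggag
Neither stretch held any of the 4 motifs. Over 250 bases the pair was 74.2% identical, and 33.3% of the 31-base words of Cyp2c66 occur in another gene, nearly all in Cyp2c65.

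Cyp2c66 fell with ABX on CD. CD mice had 24.9, 5.53, 26.2, 9.63 and 5.85 CPM and CD+ABX mice 3.64, 4.99, 4.13, 3.42 and 3.11 CPM, so that all treated mice lay below all untreated ones, with CD mice 2 and 5 closest to them. The log2 fold change was -1.90 (standard error 0.41, q = 0.00609), and it was called in all 20 fits without 1 mouse and without the libraries with liver RNA (q = 0.0401). On TDD, mice without ABX had 11.5 to 21.6 CPM and mice with ABX 4.30 to 11.8 CPM (log2 fold change -1.15, standard error 0.40, q = 0.0562). Cyp2c65 was at 135 ± 43.0 and 106 ± 11.1 CPM on CD and 140 ± 15.2 and 115 ± 4.94 CPM on TDD, without and with ABX (SD over 5 mice; log2 fold changes -0.35, q = 0.154, and -0.28, q = 0.237).

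Cyp2c29, a drug oxidising enzyme best known from liver, averaged 0.153 ± 0.143 CPM in CD, 0.603 ± 0.501 CPM in TDD, 0.622 ± 0.401 CPM in CD+ABX and 2.21 ± 1.47 CPM in TDD+ABX mice (SD, n = 5). None of its differences passed with edgeR (log2 fold changes of 1.83 to 1.99, q from 0.0573 to 0.175), while DESeq2 called it for the diet in SPF mice and for ABX on both diets. Its highest value, 4.59 CPM in TDD+ABX mouse 1, was in a library with Alb at 0.055 TPM. TDD mice 4 and 5, which held liver RNA, had 51 and 42 counts, against 3, 17 and 21 in TDD mice 1 to 3. CD+ABX mice 1 and 2, which also held it, had 34 and 48 counts, against 36, 5 and 20 in mice 3 to 5. CD mice had 9, 2, 18, 3 and 2 counts. Without the libraries with liver RNA, edgeR called Cyp2c29 for ABX on TDD only, and DESeq2 was not run. The part of liver RNA in its levels was not tested. Cyp2c68 and Cyp2c55 averaged 63.9 and 6.72 TPM over all mice, and Cyp2c23, Cyp2c67, Cyp2c40 and Cyp2c70, whose product makes muricholic acid in liver, lay at 2.91, 0.376, 0.196 and 0.257 TPM. Cyp2c40 and Cyp2c67 share 69.8% and 67.6% of their words with relatives, so their levels are uncertain, as is that of Cyp2c68 (62.0%).

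Retinoic acid is degraded by the CYP26 enzymes, of which Cyp26b1 (chromosome 6, 84571414 to 84593908) alone was a member. Cyp26a1 and Cyp26c1 reached at most 7 and 4 counts in any library. Cyp26b1 stood at 11.1, 11.8, 16.7, 9.08 and 11.4 CPM in TDD mice and at 3.12, 4.56, 3.76, 5.49 and 4.04 CPM in TDD+ABX mice. The groups were apart, and the mean fell from 12.02 ± 2.82 to 4.20 ± 0.892 CPM (SD over 5 mice; log2 fold change -1.52, standard error 0.28, q = 0.00245). The call held in all 20 fits without 1 mouse and without the libraries with liver RNA (-1.63, q = 0.0157).

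On CD, the mice without ABX had 5.56, 8.30, 18.2, 10.1 and 8.94 CPM of Cyp26b1 and those with ABX 4.47, 5.90, 7.57, 2.70 and 5.01 CPM. CD mouse 1 lay within the range of the treated mice. The log2 fold change of -0.998 missed the 2-fold limit by a small margin (standard error 0.28, q = 0.025), and it was -0.68 without CD mouse 3 (q = 0.0891). Without the libraries with liver RNA it was -0.99 (q = 0.106). It was called without CD mouse 1, 2, 4 or 5, without CD+ABX mouse 2 or 3, without CD mice 2 and 5 together, and with limma-voom. The diet gave 0.23 in SPF mice (q = 0.633) and -0.29 in ABX-treated mice (q = 0.685). None of its 31-base words occurs in another gene.

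Beside each of these ABX differences stand those of the ileal genes. Fabp6 was higher with ABX by 5.14 on the log2 scale on CD (q = 0.00585) and by 3.92 on TDD (q = 0.0198), and Slc10a2 by 4.07 (q = 9.83e-05) and 2.65 (q = 0.0014), whereas Gata4 differed by 0.03 and 0.004 (q = 0.902 and 0.983) and Lct by -0.22 and -0.06 (q = 0.465 and 0.855). Whether the position of the tissue along the intestine or bile acid handling plays a part in the P450 differences was not tested.

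Cyp2a12 (chromosome 7, 27029081 to 27037375) encodes an enzyme that hydroxylates steroids and, in mouse liver, secondary bile acids. It had 1, 0, 2, 1 and 0 counts in the 5 CD mice and 21, 24, 31, 35 and 25 counts in the 5 TDD mice, so that every TDD mouse lay above every CD mouse. From the pooled 4 and 136 counts, scaled by library, the ratio was 32.3 (exact 95% interval 12.3 to 120, counting error only). The fitted log2 fold change was 4.90 (standard error 0.84, q = 0.000763) and rests on a prior count, given the near absence of reads on CD. The gene was tested only because 4 TDD mice, the group where it is high, reached 0.5 CPM, against at most 0.336 CPM elsewhere. With a filter of 0.5 CPM in 5 libraries it is not tested, and with no filter it was called. TDD mice 1 to 3, whose liver marker sums were 1.39 to 1.55 TPM, held 21 to 31 counts, and without the libraries with liver RNA the gene was still called (log2 fold change 4.78, q = 0.00447).

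In ABX-treated mice Cyp2a12 showed no such separation. CD+ABX mice had 14, 14, 3, 0 and 7 counts and TDD+ABX mice 12, 16, 4, 1 and 9 (log2 fold change 0.11). The difference of the diet effects was -4.78 with q = 0.118 by edgeR, and DESeq2 called it. ABX on CD was called (pooled counts 4 and 38, ratio 8.59, exact 95% interval 3.09 to 33.1; q = 0.0402), but the call was lost in 8 of 20 fits that left out 1 mouse and in 8 of 10 other fits, among them limma-voom (q = 0.256), the 2 groups alone (q = 0.0927), no filter (q = 0.0504) and the fit without the libraries with liver RNA (log2 fold change 1.72 against 2.995, q = 0.357). For ABX on CD without CD mice 2 and 5, the log2 fold change was 2.32 (q = 0.148). ABX on TDD gave -1.79 (q = 0.0508), with TDD+ABX mice at 0.0199 to 0.32 CPM, all below the TDD mice at 0.425 to 0.963 CPM. Transcripts of Cyp2a22 share 34.5% of the words of Cyp2a12, and Cyp2a22 had 0 counts in every library.

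The CYP2J enzymes, 5 members on chromosome 4, are arachidonic acid epoxygenases. Cyp2j8 rose on TDD in SPF mice, from 2, 2, 8, 6 and 8 counts to 20, 6, 29, 13 and 26 counts. TDD mouse 2 lay within the CD range and the other 4 above it (0.113 ± 0.0583 against 0.408 ± 0.175 CPM, SD over 5 mice; log2 fold change 1.80, standard error 0.42, q = 0.00781). Without the libraries with liver RNA the log2 fold change was again 1.80 (q = 0.0552). Cyp2j8 was tested only because TDD mice 1 and 3 reached 0.5 CPM, against at most 0.431 CPM in the other groups. Without TDD mouse 3, or with a filter of 0.5 CPM in 5 libraries, it is not tested, and with no filter it was called.

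The abundant Cyp2j6 was at 345 ± 81.5 CPM in CD, 373 ± 56.2 in TDD, 476 ± 103 in CD+ABX and 573 ± 75.6 CPM in TDD+ABX mice (SD, n = 5). Its ABX difference on TDD had q = 0.0198 at a log2 fold change of 0.62, below 2-fold (0.59, q = 0.1, without the libraries with liver RNA). Cyp2j13 differed by 0.96 in the same comparison (q = 0.0324), at 0.176 to 0.44 CPM without ABX and 0.477 to 0.641 CPM with it, without overlap. Cyp2j9 averaged 8.48 TPM and was not called, and Cyp2j5, not tested, had 0 to 12 counts in SPF mice and 7 to 22 in ABX-treated mice. On CD its pooled counts of 8 without and 52 with ABX gave a ratio of 5.88 (exact 95% interval 2.77 to 14.3, counting error only, without the spread between mice). With no filter on low counts, Cyp2j5 was tested and called for ABX on CD.

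The unprocessed pseudogene Cyp2d41-ps (chromosome 15, 82777931 to 82782110) was higher with ABX. TDD mice had 5, 9, 15, 8 and 12 counts and TDD+ABX mice 32, 21, 32, 21 and 27, without overlap (log2 fold change 1.38, standard error 0.33, q = 0.0104). Without the libraries with liver RNA it was again 1.38 (q = 0.0573). The gene was tested only because 3 TDD+ABX mice, the group where it is high, reached 0.5 CPM, against at most 0.471 CPM elsewhere. With that filter in 5 libraries it is not tested, and with no filter it was called on TDD. On CD the values were 5, 3, 8, 6 and 3 counts without and 7, 13, 7, 12 and 25 with ABX, with overlap (1.20, q = 0.0394). That call was lost in 7 of 20 fits that left out 1 mouse and in 8 of 10 other fits, no filter (q = 0.0534) and the fit without the libraries with liver RNA (1.32, q = 0.0778) among them. Without CD mice 2 and 5 the log2 fold change on CD was 0.86 (q = 0.182). Relatives share 32.5% of its words, mainly Cyp2d40, so the counts may hold reads of other genes. Cyp2d26, from 207 to 438 TPM, and Cyp2d22, from 37.2 to 58.8 TPM, were not called, and Cyp2d37-ps stayed low.

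Enzymes of the CYP4 families hydroxylate the far end of fatty acids and of eicosanoids such as leukotrienes. None was called, but 3 passed q under 0.05. Cyp4b1 (chromosome 4, 115624725 to 115647723) was at 116, 68.3, 86.4, 129 and 101 CPM in CD mice and at 206, 172, 221, 190 and 162 CPM in TDD mice, without overlap (log2 fold change 0.93, standard error 0.19, q = 0.00298). With ABX on CD it was at 153, 223, 148, 149 and 294 CPM, again all above the same CD mice (0.95, standard error 0.19, q = 0.00313). TDD+ABX mice lay at 217 to 296 CPM, within reach of the highest CD+ABX mouse. Both differences lay below the 2-fold limit.

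Cyp4f16 (chromosome 17, 32536558 to 32551798) was lower on TDD in SPF mice, at 103 to 144 CPM against 88.2 to 363 CPM on CD (log2 fold change -0.86, standard error 0.26, q = 0.0357). The CD values were the most scattered of the 4 groups, with mouse 2 lowest and mouse 3 highest, and without mouse 2 the log2 fold change was -1.06 (q = 0.00275), without mouse 3 -0.57 (q = 0.121). Without the libraries with liver RNA it was -0.97 (q = 0.0934). With ABX on TDD it was at 177 to 245 CPM, above all TDD mice (0.83, q = 0.04, and 0.96, q = 0.0866, without the libraries with liver RNA). Cyp4f40 (32658900 to 32676914), a neighbour, differed in the same directions by less, at -0.36 for the diet in SPF mice (q = 0.00961, and -0.23, q = 0.0844, without CD mice 2 and 5) and 0.44 for ABX on TDD (q = 0.00369).

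Cyp4f14, the most abundant member, was not called. It lay at 1454 ± 305, 1471 ± 107, 1562 ± 300 and 1588 ± 66.9 CPM in CD, TDD, CD+ABX and TDD+ABX mice (SD, n = 5), with differences of at most 0.11 on the log2 scale and standard errors of 0.13. Cyp4v3 and Cyp4f13 were not called either, with 95% intervals of the diet difference in SPF mice from -0.37 to 0.23 and from -0.29 to 0.21. Cyp4f18, which acts on leukotriene B4 in leukocytes, averaged 3.58 TPM, and Cyp4f15, Cyp4f17, Cyp4f39 and the pseudogene Cyp4f41-ps stayed under 2 TPM on average. The fatty acid hydroxylase Cyp4a10, a known target of PPAR alpha, had 0 to 38 counts, and Cyp4a31, with 6 to 19 counts, and Cyp4x1, with 1 to 17, were not tested. In the 4 libraries with liver RNA Cyp4a10 had 14 to 38 counts, and among the other 16 only CD+ABX mouse 3 had more than 8, at 26. The part of liver RNA in this was not tested.

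Of 6 genes listed for sterol and bile acid oxidation, 4 were members, and none was called. Cyp27a1, which starts the acidic bile acid pathway, was at 90.8, 60.4, 85.2, 147 and 85.6 CPM in CD mice and at 229, 148, 151, 141 and 147 CPM in TDD mice (log2 fold change 0.80, standard error 0.20, q = 0.0123), with overlap only through CD mouse 4. Without CD mice 2 and 5 it was 0.60 (q = 0.0784). In ABX-treated mice the diet gave 0.19 (q = 0.711), and the difference of the diet effects was -0.61 (q = 0.548). Cyp7b1, Cyp39a1 and Cyp46a1, which act on oxysterols and cholesterol, averaged 1.14, 2.56 and 0.31 TPM with no q under 0.05. Cyp7a1 and Cyp8b1, the classical bile acid enzymes of liver, reached at most 4 and 6 counts in any library.

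Among steroid hormone genes, Cyp17a1, which makes androgen precursors, averaged 1.20 TPM and was higher with ABX by just under 2-fold on both diets. On CD it went from 0.854 to 1.63 CPM without to 1.61 to 2.89 CPM with ABX (log2 fold change 0.95, standard error 0.18, q = 0.00236). On TDD it went from 0.714 to 0.939 CPM to 1.29 to 1.90 CPM, without overlap (0.95, standard error 0.19, q = 0.00324). The diet in SPF mice gave -0.58 (q = 0.0448), and it was -0.47 without CD mouse 2 (q = 0.0928), -0.40 without CD mice 2 and 5 (q = 0.23) and -0.53 without the libraries with liver RNA (q = 0.213). The aromatase gene Cyp19a1 had no q under 0.05, Cyp21a1 at most 1 count and Cyp11b2 none. Of the vitamin D genes, Cyp2r1 (0.78 TPM) and Cyp27b1 (0.187 TPM), which add the hydroxyl groups that activate the vitamin, were members without a q under 0.05, and Cyp24a1 had at most 2 counts.

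Of the other drug oxidising members, Cyp2b10, a known target of the constitutive androstane receptor, averaged 45.5 ± 23.7 CPM in CD, 73.5 ± 10.9 in TDD, 40.6 ± 14.5 in CD+ABX and 97.9 ± 27.5 CPM in TDD+ABX mice (SD, n = 5). With ABX, the 5 TDD mice, at 73.0 to 143 CPM, lay above the 5 CD mice, at 21.2 to 55.3 CPM (log2 fold change 1.27, standard error 0.34, q = 0.0632), and DESeq2 called this difference. Cyp2e1, which oxidises ethanol and is also strong in fat and liver, ran from 0.756 to 12.8 CPM and was not called. Its highest value was in CD+ABX mouse 1, with the adipocyte gene Cfd at 60.8 TPM, and the next in CD mouse 2, with Cfd at 51.6 TPM. CD+ABX mouse 1 also held liver RNA, with Alb at 7.44 TPM. The part of adipocyte and liver RNA in the Cyp2e1 levels was not tested. Cyp2s1 (40.9 TPM), Cyp2u1 (10.9 TPM), Cyp20a1 (5.11 TPM), Cyp2w1 (1.19 TPM), Cyp2f2 (0.276 TPM) and Cyp2b19 (0.239 TPM) had no q under 0.05. The count table held exactly 2 times the transcript sum for Cyp2u1, which affects its CPM level only.

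Members whose groups did not overlap numbered 2 for the diet in SPF mice (9.58% of all genes), 3 for the diet in ABX-treated mice (4.78%), 2 for ABX on CD (9.74%) and 12 for ABX on TDD (11.0%). These 12 were Cyp17a1, Cyp2d26, Cyp2d41-ps, Cyp2j13, Cyp4f16 and Cyp4f40, higher with ABX, and Cyp26b1, Cyp27a1, Cyp2a12, Cyp3a11, Cyp3a25 and Cyp3a44, lower.

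Over the 20 mice, Cyp3a11, Cyp2c66, Cyp3a25 and Cyp2c65 varied together. Of all members tested, Cyp3a11 was the most similar to Cyp2c66 in log2(CPM + 0.5) (Pearson's r = 0.91, Spearman's rho = 0.92, n = 20), and r was 0.85 after the group means were removed. For Cyp3a25 and Cyp2c65 the values were 0.85, 0.81 and 0.86. These are descriptions, since the mice also differed in depth and in enterocyte markers, and Cyp2c65 and Cyp2c66 share sequence. Cyp2a12 and Cyp2j8, both called for the diet in SPF mice, gave r = 0.66, which dropped to 0.16 within groups.

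Among genes that serve or regulate P450 enzymes, Por, the oxidoreductase that supplies electrons, was at 103 ± 23.6 CPM in CD, 141 ± 18.4 in TDD, 109 ± 17.98 in CD+ABX and 168 ± 4.69 CPM in TDD+ABX mice (SD, n = 5). TDD gave 0.46 in SPF mice (q = 0.0302) and 0.62 in ABX-treated mice (q = 0.0259), both below 2-fold. Of 9 listed redox partners, none was called in any comparison, and 3 had q under 0.05 for the diet in SPF mice, all higher (Por, Cyb5a and Cyb5r3; 14.4% of all genes). In the other comparisons 1 partner each had q under 0.05, Por for the diet in ABX-treated mice (1.64% of all genes), Pgrmc2, lower with ABX on CD (-0.34, q = 0.00822; 12.6%), and Cyb5r1, higher with ABX on TDD (0.28, q = 0.0299; 15.4%). Nr1i2 was at 105 to 123 CPM on average in the 4 groups, with no q under 0.05. Of 18 nuclear receptor genes tested out of 19 listed, Nr0b2, the bile acid responsive small heterodimer partner, was the only one called, at 5.052 ± 1.505 CPM in CD and 0.689 ± 0.569 CPM in TDD mice (SD over 5 mice; log2 fold change -2.85, q = 0.00127). Its diet difference in ABX-treated mice was -0.35 (q = 0.786), and the difference of the diet effects did not pass (2.49, q = 0.204). ABX gave -1.15 for Nr0b2 on CD (q = 0.123) and 1.34 on TDD (q = 0.0767). For the diet in SPF mice 1.83% of all genes were called. At q under 0.05, which 14.4% met there, 3 receptors were higher and 3 lower. Higher were Nr1i3 (0.52, q = 0.00304), Pparg (0.80, q = 0.00353) and Ppara (0.60, q = 0.0066). Lower were Nr0b2, Rxrb (-0.30, q = 0.000848) and Ppard (-0.37, q = 0.02). The diet in ABX-treated mice gave 1 lower (1.64%), ABX on CD 1 higher and 3 lower (12.6%), and ABX on TDD 2 higher and 2 lower (15.4%). Of the P450 enzymes named otherwise, Cyp51, Tbxas1 and Ptgis, none was called. Cyp51 was higher at q under 0.05 in all 4 comparisons of 2 groups. For the diet it differed by 0.60 in SPF mice (q = 0.00631) and by 0.56 in ABX-treated mice (q = 0.0423). For ABX it differed by 0.56 on CD (q = 0.0118) and by 0.51 on TDD (q = 0.0176). Tbxas1 was lower for the diet in SPF mice (-0.49, q = 0.00716) and for ABX on CD (-0.63, q = 0.00173). The shares of all genes are those given above.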

How the data were processed

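Per the labels, poly-A RNA of ileum was sequenced from 20 mice. The authors quantified reads against the mouse transcriptome (GRCm38) with kallisto 0.44.0 and deposited estimated counts per gene for all libraries, with estimated counts and TPM, abundance scaled for length and library size, per transcript for each library. Kallisto divides reads shared between similar transcripts by estimation, which bears on close P450 relatives. Nothing in the labels states which mice shared a cage.

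The deposited estimated counts were rounded to whole numbers, scaled by TMM and tested with edgeR 4.0.16 in R 4.3.3 (robust quasi-likelihood fit of 4 group means over all 20 libraries). Genes needed at least 0.5 CPM in at least 1 library, and 16306 were tested. Adjusted p-values (q) are Benjamini-Hochberg values over all of them, a call needed q under 0.05 and at least a 2-fold change, and standard errors were derived from the F statistics. P-values measure the spread between these mice. The deposited TPM values were summed per gene and used for levels between genes only. Total counts ran from 36676963 to 58662617, and intervals on pooled counts cover counting error only. Gene positions came from GENCODE M21 (111450 of 113193 transcripts matched) and promoters from RefSeq (GRCm38.p6). The fitting code was tested on simulated counts.

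Members and gene lists were chosen with earlier results of these data known. Genes were named if called in any test, if among the 12 highest in mean TPM, if in the sterol, retinoic acid, vitamin D or steroid hormone lists, if next to the count threshold, or, of the redox partners and nuclear receptors, Por, Nr1i2 and those called. Other members are named to account for all 55, and were chosen after their values were seen. Redox partners, nuclear receptors and other P450 genes named for q under 0.05 alone were also chosen after their values were seen. Alternatives were DESeq2 1.42.0, limma-voom (limma 3.58.1), RLE scaling, other filters, 2 groups alone, log2 TPM, a replicate block and each mouse left out. Leaving out the libraries with liver RNA, or CD mice 2 and 5, was chosen after seeing the data.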

Additional observations from a re-analysis of the deposited data

Results flagged for a closer look

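One value stood apart within its group. In CD mouse 3, Cyp3a44 was at 7.14 CPM, while the other 4 CD mice lay at 0.963 to 2.45 CPM, and the gap to the nearest mouse took up a share of 0.759 of the whole range of the group. In all, 32 groups of 5 mice were examined in this way, and chance alone marks about 1 in 20. Without this mouse the log2 fold change of Cyp3a44 for ABX on CD moved from -1.07 to -0.21 (q = 0.821), and its differences against TDD+ABX mice were called as before (-2.65, q = 0.00606, and -3.38, q = 0.000382).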

How the results depend on the processing

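The counts of called members, 2 for the diet in SPF mice, 1 for the diet in ABX-treated mice, 5 for ABX on CD, 3 for ABX on TDD and 0 for the difference of the diet effects, depended on the processing, and no called gene changed sign in the alternatives run. RLE scaling gave 2, 1, 5, 3 and 0 in that order. A filter of 0.5 CPM in at least 5 libraries, which tests fewer members, gave 0, 1, 3, 3 and 0, and no filter gave 2, 0, 4, 3 and 0. DESeq2 gave 3, 3, 6, 6 and 1, limma-voom 2, 0, 4, 6 and 0, log2(TPM + 0.1) 2, 1, 3, 5 and 0, and log2(TPM + 1), which compresses low genes, 0, 0, 3, 0 and 0. Without a fold limit the counts were 7, 1, 8, 9 and 0. The 2 groups fitted alone gave 2, 1, 2 and 6. Leaving out the libraries with liver RNA gave 1, 0, 2, 4 and 0, and leaving out CD mice 2 and 5 gave 4, 3, 6, 6 and 0. For the other settings the cause was not tested.

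With a replicate block the counts were 2, 0, 2, 3 and 0. The numbers did not pair the mice: deviations of same-numbered mice correlated from -0.417 to 0.289 over 30 pairs, with 5 over 0.1. Over the 20 fits that each dropped 1 mouse there were 1 to 4 calls for the diet in SPF mice, 0 to 2 for the diet in ABX-treated mice, 2 to 6 for ABX on CD, 3 to 6 for ABX on TDD and 0 to 1 for the difference. The diet count in SPF mice was 4 without CD mouse 4 and 1 without TDD mouse 3. In ABX-treated mice it was 2 without CD mouse 2 or CD+ABX mouse 5, and 0 without CD+ABX mouse 1 or 3 or any TDD+ABX mouse. The ABX count on CD was 3 without CD mouse 1 or CD+ABX mouse 5 and 2 without CD mouse 3. On TDD it was 6 without CD mouse 2 or TDD+ABX mouse 4 and 5 without CD+ABX mouse 4, TDD mouse 4 or TDD+ABX mouse 2. The difference had 1 call without CD+ABX mouse 4. Depth limits Cyp2a12, Cyp2j8 and Cyp2d41-ps, which rest on at most 35 counts per mouse.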
